A study of Mus musculus with 3 samples.

Results

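The CXC chemokines that attract neutrophils were examined in primary epidermal keratinocytes of RASSF9-/- and WT mice. The 6 genes were the ligands Cxcl1, Cxcl2, Cxcl3, Cxcl5 and Ppbp and their receptor Cxcr2, out of 18193 genes that the arrays read with a probe set of 1 gene symbol. They were chosen by name with the difference between RASSF9-/- and WT on these same arrays already known, so that difference is described for them and not tested. All 8 probe sets of the 6 genes are given.

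Cells came from newborn ICR mice and were grown in a defined serum-free keratinocyte medium, and total RNA was hybridized to Affymetrix mouse genome arrays, on which sets of short oligonucleotides (probe sets) read each transcript. There were 2 RASSF9-/- arrays and 1 WT array, each from 1 culture plate, and WT came from a single mouse. The RASSF9-/- line is a transgene insertion line: a viral LMP1 gene with its own upstream promoter had integrated into an intron of Rassf9 and removed part of that intron. RASSF9-/- cells therefore carry the LMP1 insert in a single line of mice, and WT cells do not. LMP1 is known to activate NF-kappaB where it is made, the study looked for its transcript and protein in skin of this line without detecting either, and its level in these cells was not read here, so insert and loss of Rassf9 cannot be told apart. The deposited descriptions give 48 h of culture for RASSF9-/- and 24 h for WT, whereas the methods state the same low-calcium culture time for all. If the deposited times are right, a longer culture and the genotype cannot be told apart.

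Cxcl1, Cxcl2, Cxcl3, Cxcl5 and Ppbp encode small secreted proteins of the ELR class, named for a Glu-Leu-Arg motif before the first cysteines, and they signal through the G protein-coupled receptor CXCR2, which in the mouse is best known on neutrophils. They draw neutrophils out of blood vessels into inflamed tissue. Keratinocytes are known to make several of them after interleukin 1, interleukin 17, tumour necrosis factor or bacterial products, largely through NF-kappaB acting on the chemokine promoters, and their mRNAs are short-lived because AU-rich elements recruit decay factors. Ppbp, the precursor of platelet basic protein and NAP-2, is known above all as a product of megakaryocytes and platelets.

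The ligand genes lie beside each other on chromosome 5, and the bases just before the transcription start of 4 of them are shown because they share letters there. The windows are the 100 bases before the start, 5′ to 3′ on the plus strand, from RefSeq on GRCm38.p6, at chr5:90891145-90891244 for Cxcl1, chr5:90903799-90903898 for Cxcl2, chr5:90786001-90786100 for Cxcl3 and chr5:90768418-90768517 for Ppbp. Capitals mark matches to the NF-kappaB consensus and to ATAAAA, letters that form part of a TATA box spelled TATAAAA.
Cxcl1: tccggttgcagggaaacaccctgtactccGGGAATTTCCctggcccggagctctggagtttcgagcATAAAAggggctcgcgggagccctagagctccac
Cxcl2: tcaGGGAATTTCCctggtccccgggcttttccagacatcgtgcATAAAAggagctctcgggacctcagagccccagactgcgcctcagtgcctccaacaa
Cxcl3: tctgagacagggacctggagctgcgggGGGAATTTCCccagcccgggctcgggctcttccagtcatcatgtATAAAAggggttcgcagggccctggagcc
Ppbp: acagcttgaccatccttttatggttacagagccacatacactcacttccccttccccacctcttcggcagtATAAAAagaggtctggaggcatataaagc
Cxcl1, Cxcl2 and Cxcl3 held the identical letters GGGAATTTCC. They lay 71 to 62 bases before the start in Cxcl1, 97 to 88 bases before it in Cxcl2 and 73 to 64 bases before it in Cxcl3. The same place also matched the consensus on the other strand, shifted by 1 base, so each promoter held a pair of overlapping matches. Within 250 bases before the start and on both strands, the NF-kappaB consensus occurred in 3 of the 5 members with a sequence (neither Ppbp nor Cxcr2) and in 3.9% of 32851 promoters. GGGAATTTCC occurred in 0.0852% of them, a share that is only descriptive because the spelling was read from these members. ATAAAA, searched on the strand of the gene, occurred in Cxcl1, Cxcl2, Cxcl3 and Ppbp and in 10.2% of promoters, a share that is also only descriptive. In Cxcl1 and Cxcl2 the base before it was C and not T. TGANTCA, the AP-1 element, occurred in Ppbp alone among the 5 members with a sequence and in 6.75% of promoters. Cxcl5 had no sequence in the promoter reference, so it was not searched for any of these motifs. A match is a stretch of letters and not a site shown to be bound.

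Signals are the deposited MAS5 intensities, on a linear scale with a trimmed mean of 500 on every array. Median signals were 99 and 81.7 on RASSF9-/- arrays 1 and 2 and 90.8 on the WT array. The highest signal of the 27 control probe sets for Bacillus subtilis genes, which have no counterpart among mouse mRNAs, was 78.4. A signal under it was treated as not above background. Between 44.2% and 49.1% of probe sets on an array were under that limit, and the ratio of 3′ to 5′ control probe sets ranged over arrays between 0.832 and 0.939 for Gapdh and between 1.37 and 1.43 for beta-actin. Rassf9 itself had signals of 59.6 and 120.2 in RASSF9-/- cells and 478.1 in WT cells with one probe set, at least 4.93-fold lower. Its other probe set gave 68.2 and 76.7 in RASSF9-/- cells and 340.4 in WT cells, at least 4.34-fold lower, and the position of both probe sets with respect to the removed stretch of intron was not known. All 12 epidermal markers, among them Krt5 and Krt14, were above the limit on every array. The names of the scanned array files show that RASSF9-/- array 1 and the WT array share a file-name number that RASSF9-/- array 2 does not, so array 1 against WT is the comparison within 1 such set.

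All 5 ligands had far higher signals in RASSF9-/- cells than in WT cells, on both arrays and with all 7 ligand probe sets, and the receptor was under the background limit everywhere. Cxcl1, the main neutrophil attractant of mouse epithelium, was read by 3 probe sets. The brightest, 1457644_s_at, gave 14364.6 and 9976.6 in RASSF9-/- cells and 682.7 in WT cells, or 21.04-fold and 14.6-fold higher on arrays 1 and 2. Probe set 1419209_at gave 10825.4 and 8150.4 in RASSF9-/- cells and 850.7 in WT cells (12.7-fold and 9.58-fold). Probe set 1441855_x_at gave 3625.3 and 2190.0 in RASSF9-/- cells and 590.5 in WT cells (6.14-fold and 3.71-fold). All 3 probe sets read Cxcl1 above the background limit in WT cells, and the size of its difference depended on the probe set although the direction did not. On the log2 scale the mean differences of the 3 probe sets were 4.13, 3.46 and 2.25 in that order. The endings of the names 1457644_s_at and 1441855_x_at mark probe sets whose probes may also match other transcripts, so these signals may not be of Cxcl1 alone.

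Cxcl2, also called MIP-2 and made by epithelium and macrophages in inflammation, had signals of 3243.1 and 1958.0 in RASSF9-/- cells and 62.4 in WT cells. The WT signal was under the background limit, so Cxcl2 was at least 32.1-fold higher, with 41.4 and 25.0 as the bounds on arrays 1 and 2. Cxcl3, a close relative of Cxcl2, had 3263.2 and 3501.5 in RASSF9-/- cells and 56.3 in WT cells, at least 43.1-fold higher. The RASSF9-/- arrays lay close together for Cxcl3, differing by 0.10 on the log2 scale. Cxcl5, a ligand known from epithelial cells, had 1534.2 and 1523.4 in RASSF9-/- cells and 4.5 in WT cells, at least 19.5-fold higher. Its log2 difference of 8.41 was the highest of all 11089 genes compared on both arrays, but the WT value lies far under the limit, where a signal carries no order. With the limit as a floor Cxcl5 stood at rank 13 on array 1 and rank 7 on array 2.

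Ppbp, the platelet basic protein precursor, had signals of 2100.2 and 8691.0 in RASSF9-/- cells and 124.2 in WT cells, which is 16.9-fold and 70.0-fold higher. It was the ligand on which the RASSF9-/- arrays differed most: array 2 was 4.14-fold above array 1, whereas for Cxcl1 and Cxcl2 array 1 was the higher of the pair. Cxcl3 was slightly higher on array 2 (1.07-fold), and Cxcl5 was level. The median absolute log2 difference between the RASSF9-/- arrays was 0.381 over the genes compared, and 2.2% of genes had a larger one than Ppbp at 2.05. Even the lower of the pair was well above WT. Cxcr2, the receptor, gave 19.5 and 15.7 in RASSF9-/- cells and 7.3 in WT cells, and with all 3 signals under the limit no fold is given.

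**Figure D1:**
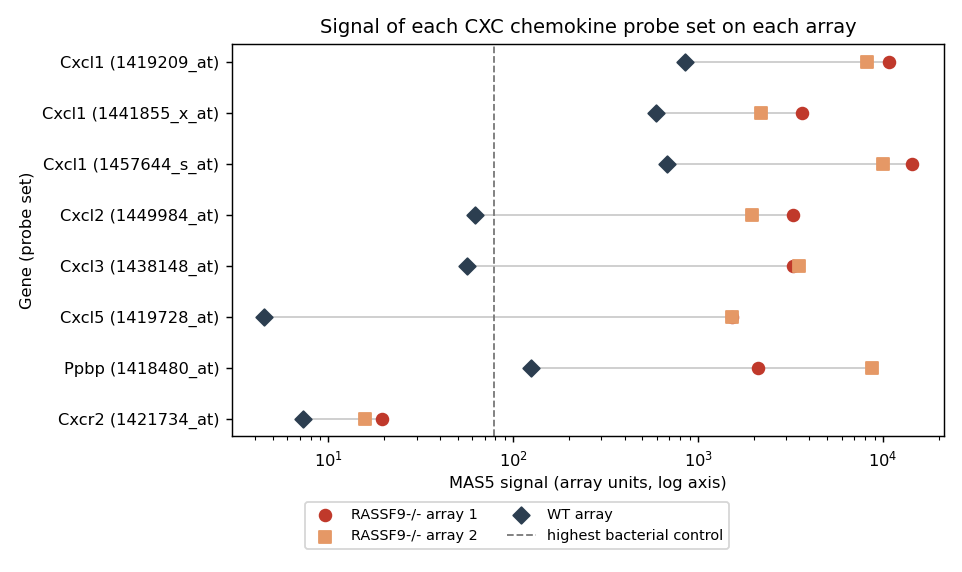
MAS5 signal (array units, log axis) of each probe set of the 6 genes, with 1 marker per array (circles and squares for RASSF9-/- arrays 1 and 2, diamonds for WT). A dashed line marks the background limit of 78.4, the highest Bacillus subtilis control. Every ligand probe set has both RASSF9-/- markers to the right of WT, the WT markers of Cxcl2, Cxcl3 and Cxcl5 are left of the line, and all 3 markers of Cxcr2 are left of it.

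Ordered by the fitted log2 difference, the ligands ran Cxcl5 (8.41), Cxcl3 (5.91), Cxcl2 (5.34), Ppbp (5.10) and Cxcl1 (4.13). This order was not stable, because with signals under the limit raised to it the same differences were 5.43 for Cxcl3, 5.10 for Ppbp, 5.01 for Cxcl2, 4.29 for Cxcl5 and 4.13 for Cxcl1. The arrays also overlapped between neighbours, with 5.70 and 4.97 for Cxcl2 and 4.08 and 6.13 for Ppbp on arrays 1 and 2. The median over the 5 ligands was 5.34 (5.01 with the limit as a floor), beside a median of -0.00843 over all genes compared. For 3 of the ligands the WT signal was under the limit, so they entered the comparison only through the RASSF9-/- arrays, and the median describes those that passed. By difference from WT among all genes, with signals under the limit raised to it (an alternative chosen after seeing the data), Cxcl3, Cxcl2, Cxcl1, Cxcl5 and Ppbp stood at ranks 3, 4, 11, 13 and 14 on array 1. On array 2, Ppbp, Cxcl3, Cxcl2, Cxcl5 and Cxcl1 stood at ranks 1, 2, 6, 7 and 11. The ranks of Cxcl2, Cxcl3 and Cxcl5 rest on a bound in WT.

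Each gene was compared between RASSF9-/- and WT with limma, which pools the variance of all genes to steady that of each, at an adjusted p under 0.05. Of 11089 genes, 9 were called higher (0.0812%) and 0 lower (0%), with 345 higher and 270 lower at an unadjusted p under 0.05. The methods' t-test, which the study does not tie to its arrays, was also run on the same values. It gave 258 higher and 235 lower unadjusted, and 3 higher and 1 lower after adjustment. Those adjusted calls are of genes with the same signal on both RASSF9-/- arrays, for which this test has no spread, so they are not read as results. Among the 9 were 4 of the 5 ligands, Cxcl1, Cxcl2, Cxcl3 and Cxcl5, which is stated as a description because this contrast chose them. Ppbp was not among them. On each RASSF9-/- array all 5 ligands exceeded WT by 2-fold or more, as did 320 genes in all (2.89%), and none was among the 248 genes that were lower by 2-fold or more on each (2.24%). A lone WT array has no spread of its own and is assumed to vary like the RASSF9-/- pair, the p-values measure only the spread between these samples, and 0 ligands were called with quantile normalization, without the intensity trend or with the background limit as a floor.

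**Figure D2:**
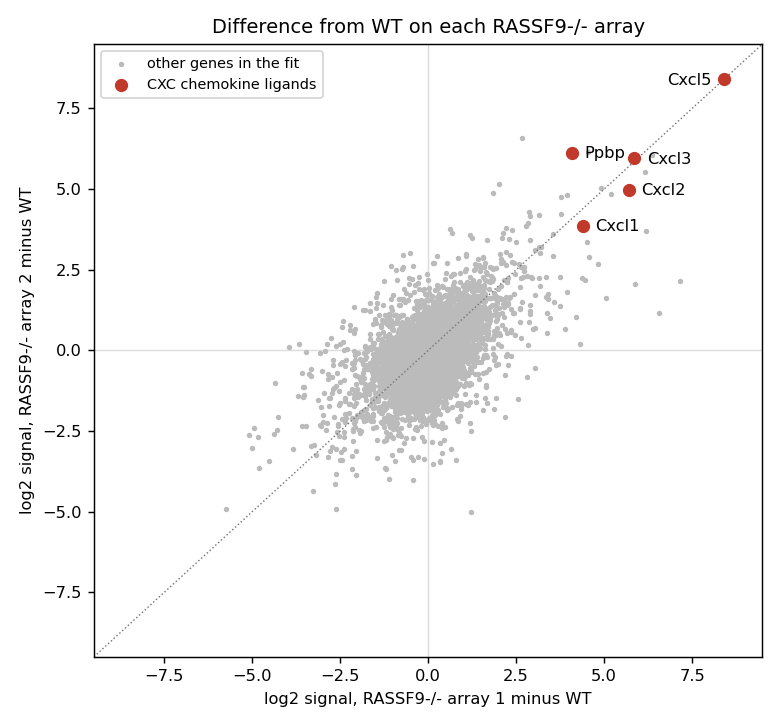
Difference in log2 signal from WT on RASSF9-/- array 1 (horizontal) and RASSF9-/- array 2 (vertical) for the 11089 genes compared, with the 5 ligands as large markers and a dotted line where both arrays are equal. Cxcl5 is at the upper right corner of the cloud, Cxcl1, Cxcl2 and Cxcl3 lie near the dotted line, and Ppbp lies above it at 4.08 and 6.13.

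In bulk RNA a difference in the number of cells of a type and in RNA per cell cannot be told apart, and markers of the cell types known to make or follow these chemokines were therefore read beside them. Of the 12 neutrophil markers 10 were on the array, with summed signals of 32480 and 5453 in RASSF9-/- cells and 37200 in WT cells, nearly all from S100a8 and S100a9, which keratinocytes are also known to make. Of these 10, 7 and 5 were above the limit in RASSF9-/- cells and 5 in WT cells. Camp, which encodes a granule peptide, was under it on all arrays, like Cxcr2. Mpo (107.6) and Ngp (82.8) were above it on RASSF9-/- array 1 alone, and Csf3r (85.8) on RASSF9-/- array 2 alone. Ltf and Fcgr3 were above it on all arrays, and Elane on RASSF9-/- array 1 and in WT cells. The 17 macrophage markers summed to 5542 and 5022 in RASSF9-/- cells and 2157 in WT cells, with 11 and 8 above the limit in RASSF9-/- cells and 5 in WT cells. Without the lysozyme genes Lyz1 and Lyz2, the other 15 summed to 3166 and 3144 in RASSF9-/- cells and 2104 in WT cells. Ptprc, Itgam, Fcgr1, C1qa and C1qc were under the limit on all arrays, whereas Cd68 had 350.8 and 407.0 in RASSF9-/- cells and 394.7 in WT cells. Other markers of the list were higher than WT on one or both arrays: Csf1r, the macrophage growth factor receptor, had 791.8 and 1685.7 in RASSF9-/- cells and 784.4 in WT cells. Laptm5, a lysosomal protein of blood cells, had 246.7 and 131.8 in RASSF9-/- cells and 62.1 in WT cells. The signalling adaptors Tyrobp and Fcer1g were above the limit on RASSF9-/- array 1 alone, with 136.7 and 142.1 there. C1qb (82.6) was above it on that array alone, and Cd53 (78.6) on RASSF9-/- array 2 alone. Cd14 was above WT on both arrays. Adgre1 had 115.2 and 83.5 in RASSF9-/- cells and 113.0 in WT cells. Mrc1 had 114.2 and 43.6 in RASSF9-/- cells and 102.5 in WT cells, so both genes were near WT on array 1 and lower on array 2. For platelets, 8 of 9 markers were read, and they summed to 2996 and 9501 in RASSF9-/- cells and 877.2 in WT cells, with 5 and 6 above the limit in RASSF9-/- cells and 6 in WT cells, but that sum contains Ppbp. Without Ppbp the other 7 summed to 895.6 and 810.0 in RASSF9-/- cells and 753.0 in WT cells. Pf4, platelet factor 4, had 327.1 and 246.0 in RASSF9-/- cells and 79.3 in WT cells, 3.58-fold higher without being called. Itga2b, the platelet integrin, had 270.2 and 219.9 in RASSF9-/- cells and 251.7 in WT cells. Gp9, a platelet glycoprotein, was under the limit on all arrays, like Itgb3. Lower than WT on both arrays were Gp6 (112.7 and 111.9, WT 182.1), Gp1bb (95.0 and 129.5, WT 136.6) and Treml1 (28.9 and 82.8, WT 93.2). Of the 5 platelet markers compared, 2 (Ppbp and Pf4) were higher and 2 lower on both arrays, beside 33.6% and 32.7% of all genes. The part of neutrophil, macrophage or platelet RNA in the ligand signals was not tested.

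Between the outermost ligands of the cluster, RefSeq on GRCm38.p6 places 7 genes in the order Cxcl5, Ppbp, Pf4, Cxcl3, Cxcl15, Cxcl1 and Cxcl2. Pf4 and Cxcl15 in this row are not among the 6 genes. Pf4, whose signals stand above among the platelet markers, had a log2 difference of 1.84 (SE 0.57, adjusted p = 0.670 from limma). Cxcl15, known as lungkine from mouse lung epithelium, had 16.1 and 6.4 in RASSF9-/- cells and 20.1 in WT cells, all under the limit. Of the 6 nearest named protein-coding genes on each side, 11 of 12 were on the array, 8 were compared, 3 were under the limit on all arrays and 0 were called by limma, with 1 at an unadjusted p under 0.05 and 0 by the methods' t-test. On the Cxcl5 side, Rassf6, another gene of the RASSF family, had 235.7 and 122.1 in RASSF9-/- cells and 87.4 in WT cells, a log2 difference of 0.96 (adjusted p = 1.00 from limma). On the Cxcl2 side, Mthfd2l, a mitochondrial folate enzyme, had 822.4 and 892.2 in RASSF9-/- cells and 491.9 in WT cells. Epgn and Ereg, which encode ligands of the EGF receptor, lay on opposite sides of WT on the RASSF9-/- arrays, with 417.2 and 2339.4 in RASSF9-/- cells and 1192.6 in WT cells for Epgn, and 220.8 and 2205.0 in RASSF9-/- cells and 364.8 in WT cells for Ereg. Parm1, a membrane mucin-like protein, had 287.4 and 146.9 in RASSF9-/- cells and 688.1 in WT cells (log2 difference -1.74, adjusted p = 0.764 from limma).

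**Figure D3:**
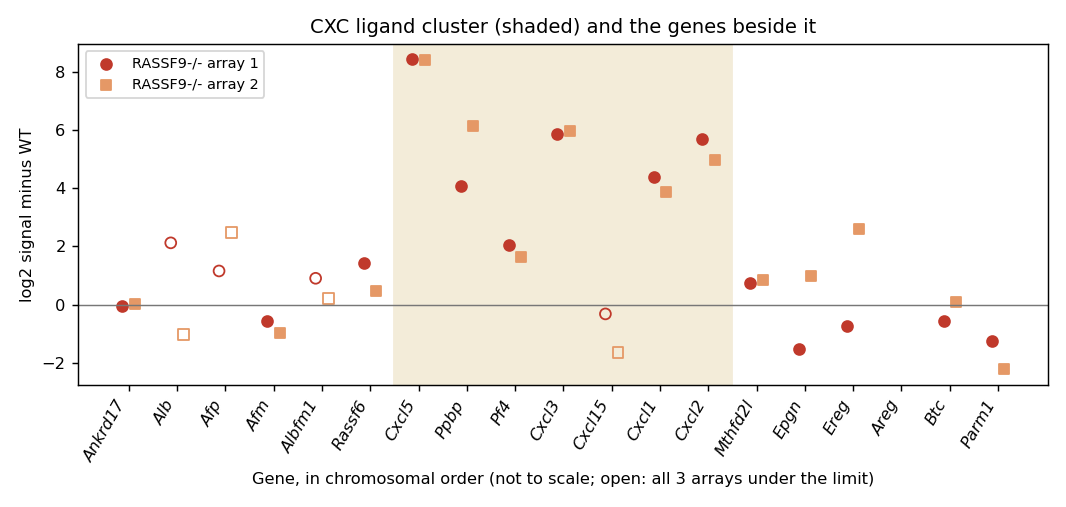
Difference in log2 signal from WT (vertical) for the ligand cluster on chromosome 5 (shaded) and the 6 nearest named protein-coding genes on each side, in chromosomal order and not to scale, with circles for RASSF9-/- array 1 and squares for array 2. Both markers of the 5 ligands lie between 3.87 and 8.41 while the highest outside the shading is that of Ereg at 2.60, open markers are genes with all 3 arrays under the background limit, and Areg has no marker.

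The genes whose pattern over both arrays lay nearest to the median of the ligands, by Euclidean distance of the log2 differences from WT (5 genes taken, 2 values each), were Cxcl10, Lyz2, Mki67, Sprr2d and Lyz1. Cxcl10, an interferon-induced CXC chemokine that draws T cells, had signals of 1318.7 and 860.9 in RASSF9-/- cells and 18.5 in WT cells and rose at least 13.6-fold (distance 0.619, adjusted p = 0.0359 from limma). Lyz2, the lysozyme of myeloid cells, had 785.7 and 637.7 in RASSF9-/- cells and 9.6 in WT cells and rose at least 9.03-fold (distance 0.662, adjusted p = 0.0359 from limma). Lyz1, its neighbour in sequence, had 1590.6 and 1240.7 in RASSF9-/- cells and 43.4 in WT cells and rose at least 17.9-fold (distance 1.23, adjusted p = 0.0359 from limma). Sprr2d, a cornified envelope precursor, had 15040.2 and 16294.4 in RASSF9-/- cells and 498.4 in WT cells and rose 31.4-fold (distance 1.22, adjusted p = 0.0142 from limma). Mki67, a proliferation marker, had 193.0 and 587.5 in RASSF9-/- cells and 8.3 in WT cells, at least 4.30-fold higher without passing the test (distance 1.18, adjusted p = 0.240 from limma). For 4 of these 5 genes, all but Sprr2d, the WT signal was under the limit, so their likeness rests in part on values that carry no order. Those 4 genes entered the comparison only through the RASSF9-/- arrays. With the limit as a floor the 5 nearest genes were Sprr2d, Lyz1, Sprr2f, Calcb and Cxcl10 (distances 0.649, 0.660, 0.714, 0.757 and 1.23), while Lyz2 and Mki67 came to places 12 and 63. The nearest genes were picked for their likeness on this same contrast, so their p-values from limma are a description and no separate support. The calls of Cxcl10, Lyz1, Lyz2 and Sprr2d were lost with quantile normalization, without the intensity trend and with the background limit as a floor. Those of Cxcl10, Lyz1 and Lyz2, but not of Sprr2d, were also lost with a pseudocount of 32 and with a filter at the 75th percentile. That of Lyz2 was lost with no filter as well.

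Other CXC chemokines and their receptors lay on both sides of WT. Of 17 genes listed, 16 were on the array and 10 were compared; 1, Cxcl10, was called higher and 0 lower by limma, with 4 higher and 1 lower at an unadjusted p under 0.05 and 0 by the methods' t-test. Their median log2 difference was -0.05. Cxcl11, which shares the receptor CXCR3 with Cxcl10, had 1248.0 and 255.6 in RASSF9-/- cells and 56.4 in WT cells, at least 7.20-fold higher (adjusted p = 0.561 from limma). Cxcl12, the ligand of CXCR4, had 274.0 and 184.4 in RASSF9-/- cells and 625.5 in WT cells, a log2 difference of -1.48 (adjusted p = 0.782 from limma). Cxcl16, a transmembrane chemokine, had 15490.2 and 11881.5 in RASSF9-/- cells and 7037.8 in WT cells. The difference between these genes and the ELR ligands was not tested, since the ligands were chosen for theirs.

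Cytokines were read next, among them known inducers of these chemokines. The list also held the receptor antagonists Il1rn and Il36rn, and Tslp, Csf2 and Csf3, which are not taken as inducers here. Of 19 listed, 12 were on the array and 9 were compared. By 2-fold or more on each RASSF9-/- array, 5 were higher (Il1a, Tnf, Tslp, Csf2 and Csf3) and 1 was lower, beside 2.89% and 2.24% of all genes. By limma 0 were called, with 6 higher and 1 lower at an unadjusted p under 0.05, beside 345 and 270 of all 11089 genes. The methods' t-test gave 0. The median log2 difference of the compared cytokines was 1.45. Il1a, the interleukin 1 that keratinocytes store, had signals of 3235.1 and 2688.2 in RASSF9-/- cells and 486.2 in WT cells, a log2 difference of 2.60 (SE 0.37, adjusted p = 0.192 from limma). Csf3, the growth factor G-CSF for neutrophils, had 2783.6 and 1003.2 in RASSF9-/- cells and 205.9 in WT cells (log2 difference 3.02, adjusted p = 0.346). Tnf, named beyond the rule because the textbook puts it upstream of these ligands, had 1782.5 and 1391.1 in RASSF9-/- cells and 575.1 in WT cells (1.45, adjusted p = 0.542). Tslp, an epithelial cytokine, had 2605.1 and 602.6 in RASSF9-/- cells and 170.1 in WT cells (2.88, adjusted p = 0.586). For these 4 cytokines both RASSF9-/- signals were above WT. Il18, a keratinocyte cytokine that acts through MyD88, lay the other way with 370.2 and 537.6 in RASSF9-/- cells and 1466.2 in WT cells (-1.72, adjusted p = 0.527). Il1b had 148.3 and 78.4 in RASSF9-/- cells and 105.5 in WT cells, on opposite sides of WT, and Il17a was under the limit on all arrays.

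Receptors and adaptors for these signals were mostly near WT. Of 19 listed, 18 were on the array and 17 were compared, with 0 called by limma (1 higher and 0 lower at an unadjusted p under 0.05, 2 by the methods' t-test unadjusted and 0 adjusted) and a median log2 difference of 0.02. Tlr4, the receptor for bacterial lipopolysaccharide, had 182.2 and 190.5 in RASSF9-/- cells and 20.7 in WT cells, at least 2.38-fold higher (adjusted p = 0.346 from limma). Its co-receptor Cd14 had 882.0 and 472.1 in RASSF9-/- cells and 370.8 in WT cells. Il6ra, a chain of the interleukin 6 receptor, had 181.4 and 189.5 in RASSF9-/- cells and 73.7 in WT cells. Il1r1, the interleukin 1 receptor, had 622.7 and 737.2 in RASSF9-/- cells and 588.6 in WT cells, a log2 difference of 0.20.

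NF-kappaB subunits, its feedback genes and others listed with them (Icam1, Cebpb and Cebpd) had mostly higher signals in RASSF9-/- cells, without any call. Of 16 listed, 15 were on the array and compared. Of these, 13 were higher and 1 lower on both RASSF9-/- arrays at any size, beside 33.6% and 32.7% of all genes. By 2-fold or more on each, 4 were higher, beside 2.89% of all genes. By limma 0 were called, with 6 higher and 0 lower at an unadjusted p under 0.05. The methods' t-test gave 1 unadjusted and 0 adjusted. The median log2 difference was 0.87. Nfkbie, the inhibitor IκBε, had 2103.2 and 1876.8 in RASSF9-/- cells and 234.0 in WT cells (log2 difference 3.09, SE 0.39, adjusted p = 0.176 from limma). Birc3, a ubiquitin ligase of the TNF receptor complex, had 4949.8 and 2039.8 in RASSF9-/- cells and 817.1 in WT cells (1.96, adjusted p = 0.572). Nfkbiz, the nuclear cofactor IκBζ, had 4348.0 and 3327.0 in RASSF9-/- cells and 1481.5 in WT cells (1.36, adjusted p = 0.524). Cebpd, a transcription factor, had 1827.5 and 1500.7 in RASSF9-/- cells and 718.6 in WT cells (1.20, adjusted p = 0.689). Rela, the p65 subunit, had 3866.9 and 5139.0 in RASSF9-/- cells and 4440.3 in WT cells. For Rela the WT signal thus lay between those of the RASSF9-/- arrays. The other compared subunits were above WT on both, with log2 differences on arrays 1 and 2 of 0.80 and 0.94 for Nfkb2, 0.65 and 0.50 for Relb, and 0.05 and 1.03 for Rel. Some feedback genes were near WT on array 2, with 0.35 and 0.03 for Bcl3 and 1.68 and 0.35 for Tnfaip3.

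The letters GGGAATTTCC of Cxcl1, Cxcl2 and Cxcl3 stood in the promoters of 28 genes, of which 25 were not among the 6 chemokine genes and 7 of those were compared on the arrays. These were Csad, Il16, Map3k7, Nfkbia, Trio, Tufm and Zfp84. None of the 7 differed from WT by 2-fold or more on each RASSF9-/- array, 0 were called by limma and 0 had an unadjusted p under 0.05 by limma or the methods' t-test, and their median log2 difference was 0.26. Nfkbia, the inhibitor IκBα, had 30799.0 and 22862.1 in RASSF9-/- cells and 16321.2 in WT cells, a log2 difference of 0.70 (SE 0.33, adjusted p = 0.963 from limma).

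For regulators of chemokine mRNA decay, all 9 listed genes were compared, with a median log2 difference of 0.10. By 2-fold or more on each RASSF9-/- array, 1 was higher, beside 2.89% of all genes. By limma 0 were called, with 1 higher and 0 lower at an unadjusted p under 0.05 and 0 by the methods' t-test. Zc3h12a, the endonuclease Regnase-1 that cuts inflammatory mRNAs, had 1303.9 and 1792.1 in RASSF9-/- cells and 373.7 in WT cells (log2 difference 2.03, SE 0.42, adjusted p = 0.346 from limma). Zfp36, or tristetraprolin, which destabilizes AU-rich mRNAs, had 1805.0 and 2794.7 in RASSF9-/- cells and 2124.6 in WT cells, on both sides of WT. Arid5a, which stabilizes such mRNAs, had 603.4 and 321.6 in RASSF9-/- cells and 715.7 in WT cells (-0.70, adjusted p = 1.00).

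**Figure D4:**
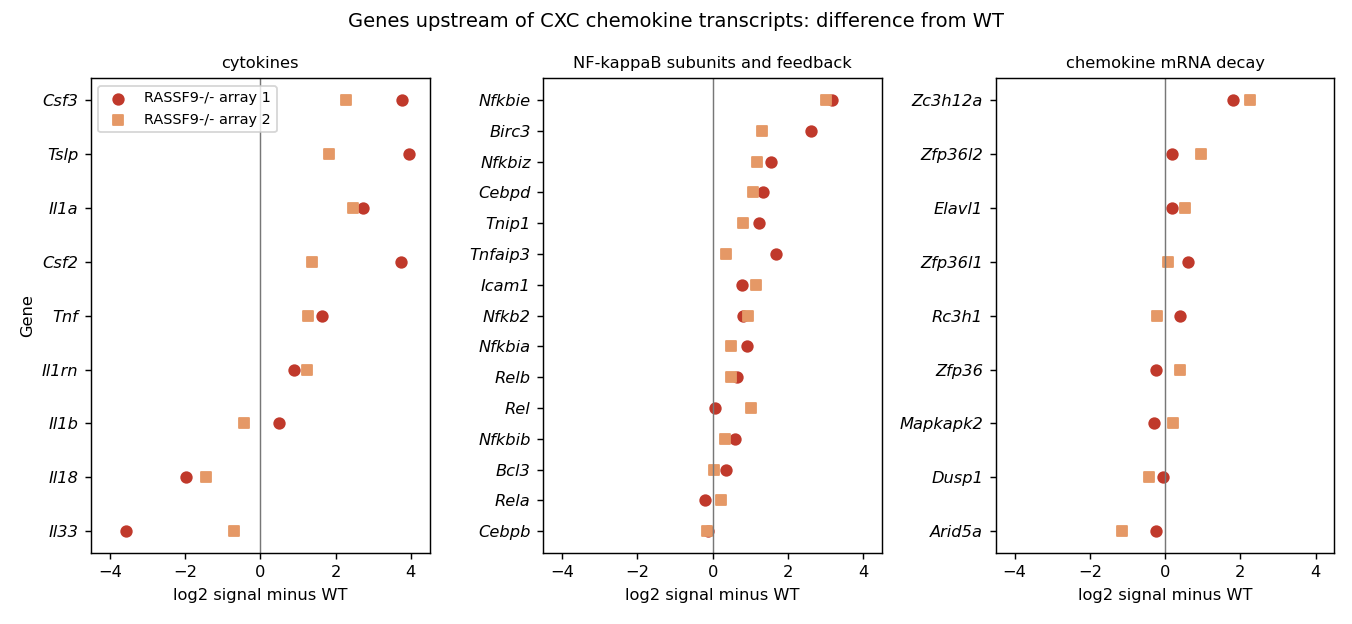
Difference in log2 signal from WT (horizontal) for compared genes, with circles for RASSF9-/- array 1 and squares for array 2. Panels hold the listed cytokines (left), NF-kappaB subunits, feedback genes and others listed with them (middle) and factors of chemokine mRNA decay (right). None of these genes passed the test over all genes; Nfkbie, Il1a and Zc3h12a have both markers to the right of 1 and close together, whereas Csf2, Tslp and Il33 have markers far apart.

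Other neutrophil attractants and products were read for comparison. Of 14 listed, 12 were on the array and 7 were compared, with a median log2 difference of 1.61. By 2-fold or more on each RASSF9-/- array, 2 were higher, beside 2.89% of all genes. By limma 0 were called, with 1 higher and 0 lower at an unadjusted p under 0.05 and 0 by the methods' t-test. Ptges, which makes prostaglandin E2, had signals of 1391.0 and 2430.3 in RASSF9-/- cells and 600.3 in WT cells (log2 difference 1.61, adjusted p = 0.575 from limma). Lcn2, a bacteriostatic protein of neutrophils and inflamed epithelium, had 8685.4 and 205.3 in RASSF9-/- cells and 92.2 in WT cells, so that nearly all of its difference lay on array 1. Mmp9, a gelatinase, had 23189.4 and 4508.2 in RASSF9-/- cells and 2806.6 in WT cells, and Saa3, an acute-phase protein, had 987.7 and 137.6 in RASSF9-/- cells and 95.7 in WT cells. S100a8 had 19699.1 and 2081.4 in RASSF9-/- cells and 21399.9 in WT cells. Lcn2, Saa3, Mmp9 and S100a8 had their higher RASSF9-/- signal on array 1 by a wide margin, whereas Ppbp had it on array 2 and Cxcl3 and Cxcl5 were nearly level.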

How the data were processed

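RNA of 2 RASSF9-/- samples and 1 WT sample was measured on Affymetrix arrays. The authors deposited linear MAS5 signal intensities, scaled to a trimmed mean of 500 (2% removed at each end); GeneSpring is named in their methods and was not used here. Of 45037 probe sets that are not controls, the platform annotation gives 34945 with 1 symbol, 932 with several and 9160 with none, and 34741 matched RefSeq by gene ID. Deposited intensities were converted to log2 without a pseudocount. The brightest probe set per gene was kept where its mean signal reached the 50th percentile (82.7), which left 11089 genes. Cxcr2 did not pass. They were compared with limma 3.58.1 in R 4.3.3 (lmFit, eBayes, trend, two-sided, Benjamini-Hochberg), with 1 residual degree of freedom, and the procedure was tested on simulated data. A term for the number shared by array file names could not be fitted. A signal under the highest of 27 Bacillus subtilis controls (78.4) was raised to it for a bound ("at least"). Lower and higher counts at 2-fold carry no test. The members, gene lists, cell type markers and tests were chosen with earlier results of these data known. Genes named were all members, up to 4 of each list by the smaller of the differences, every called list gene, the 5 nearest patterns and the cluster's neighbours, and others were named after their values were seen. Windows and motifs came from RefSeq promoters.

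Marker lists of other cells gave summed signals, in RASSF9-/- arrays 1 and 2 and then WT, of 184600, 234300 and 237500 for keratinocytes, 16610, 9995 and 12260 for Langerhans and dendritic cells, 391.5, 159.3 and 533 for T cells, 576.7, 505.5 and 490.8 for mast cells, 25000, 35280 and 29400 for melanocytes, 2762, 3964 and 3156 for fibroblasts, and 470.5, 473.8 and 367.2 for endothelium. Nearly all of the Langerhans and dendritic sum came from Epcam (15580.0, 9648.0 and 11450.2), and 5 of those 9 markers were under the limit on all arrays. Most of the mast cell sum came from Kit (347.5, 349.7 and 348.7), and 5 of those 6 markers were under the limit on all arrays.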

Additional observations from a re-analysis of the deposited data

How the results depend on the processing

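All 5 ligands kept the higher signal in RASSF9-/- cells with median scaling, quantile normalization, the pseudocount, the floor, averaged probe sets and either RASSF9-/- array left out; the other alternatives give no difference per ligand. Their median log2 difference of 5.34 was 4.79 with a pseudocount of 32 and 5.01 with the background limit as a floor, and it lay between 5.70 and 5.96 when either RASSF9-/- array was left out. Cxcl5 depended most on the low values, at 8.41 as given, 5.42 with the pseudocount and 4.29 with the floor. With the floor, 3 of the 5 nearest patterns were shared with those from the signals as deposited, an alternative chosen after seeing the data. The 9 calls by limma became 0 with quantile normalization, 0 without the intensity trend, 0 with the floor, 5 with the pseudocount and 5 with a filter at the 75th percentile, and the cause was not tested. Of the 4 ligands called, 3 were called with the pseudocount (without Cxcl2), with the stricter filter (without Cxcl5) and with probe sets averaged per gene (without Cxcl1). The methods' t-test gave 493 genes unadjusted and 4 after adjustment. Those 4 are the genes with the same signal on both RASSF9-/- arrays. For them this test has no spread and its p-value carries no information. Genes higher by 2-fold or more on each RASSF9-/- array numbered 320, against 1276 with no filter, 126 with the stricter filter, 541 as single probe sets, 785 at 1.5-fold, 112 at 3-fold and 646 to 762 with either array left out. Those lower by as much numbered 248, against 896, 112, 469, 686, 87 and 575 to 988 in the same order. Without a RASSF9-/- array limma has no residual degree of freedom and was not run. No paired analysis was possible because WT has 1 array. With 3 arrays, and signals near background for WT, the precision is limited by their number.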
